A study of Mus musculus domesticus with 12 samples.

Results

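The 9 genes described here encode proteins of megakaryocytes, the bone marrow and fetal liver cells that shed platelets, and of platelets themselves: Itgb3, Itga2b, Pf4, Gp1ba, Gp1bb, Gp9, Vwf, Fli1 and Nrgn. They were chosen by name, with earlier results of these data known, and each of the 9 was found among the 55385 gene identifiers of the deposited tables. The RNA came from erythroid precursors and proerythroblasts of C57BL/6J mouse fetal liver at E14.5. Lineage-depleted liver cells were infected with a retrovirus carrying a short hairpin RNA (shRNA), grown for 2 days under erythroid expansion conditions, and sorted as GFP+ Ter119- cells with intermediate or higher CD71. The 3 groups of 4 libraries carried a hairpin against Dis3 (shDis3), against Exosc10 (shExosc10) or against firefly luciferase as the control (shLuc). Dis3 and Exosc10 are the catalytic subunits of the RNA exosome, a complex that trims and degrades RNA. All cells, control cells included, carried a virus and GFP, and the labels do not say whether a group used 1 hairpin sequence or several.

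Megakaryocytes and erythroid cells share a progenitor, and the choice between them is governed in part by opposing transcription factors: the ETS factor Fli1 drives megakaryocyte genes, while Klf1 drives erythroid genes. Itga2b and Itgb3 encode the integrin chains that pair into the platelet receptor for fibrinogen, and Gp1ba, Gp1bb and Gp9 encode subunits of the GPIb-IX complex, the platelet receptor for von Willebrand factor. Vwf encodes that factor itself, and Pf4 encodes platelet factor 4, a chemokine stored in platelet granules. Nrgn encodes neurogranin, a calmodulin-binding protein best known from neurons, whose transcript is also found in human platelets.

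Library totals lay between 14936200 and 32397204 counts. Levels are given as CPM, counts scaled to the TMM-adjusted library size, and a group's 4 values follow replicates 1 to 4. Dis3 stood between 24.7 and 52.4 CPM in shDis3 libraries and between 113 and 196 CPM in the other 8, and Exosc10 between 18.9 and 30.8 CPM in shExosc10 libraries and between 80.1 and 141 CPM in the others, so no library went against its hairpin label. The labels do not say whether replicates came from separate cultures or embryos, so each p-value refers to the spread among these 12 samples alone, and that spread may be technical. In RNA from bulk cells, fewer cells of a type and less RNA per cell cannot be told apart.

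By 1 measure, chosen after the data were seen, 3 libraries stood apart from their groups over genes other than the members. Over 8185 genes averaging 10 CPM or more, the members and the other megakaryocyte genes left out, shLuc replicate 4 was most like shDis3 replicate 3 (Pearson r = 0.988 of log2 CPM), whereas its highest r within shLuc was 0.901. shDis3 replicate 4 and shExosc10 replicate 1 were most like each other (r = 0.984), against highest values of 0.925 and 0.919 within their own groups. By smaller margins, shDis3 replicate 3 was also most like a library of another group (0.988, against 0.965 within shDis3). So were shLuc replicate 1 (0.974, against 0.971 within shLuc) and shLuc replicate 2 (0.980, against 0.979), both most like shExosc10 libraries. Over 17589 genes, low ones included, the grouping was another: shDis3 replicate 2 was most like shLuc replicate 2 (r = 0.963, against 0.929 at most within shDis3), shDis3 replicate 4 clustered with shDis3 replicates 1 and 3, and shLuc replicate 1 formed a cluster of its own. shLuc replicate 4 and shExosc10 replicate 1 lay outside the main cluster of their group by both measures. These correlations are across genes and carry no test. The results below that rest on these libraries are given with and without them; all 3 were singled out with earlier results of these data known.

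The 9 genes are protein-coding in GENCODE M21 on build GRCm38. Chromosome 11 holds Itgb3 (104608000 to 104670476, plus strand), Itga2b (102453297 to 102470122, minus strand) and Gp1ba (70639122 to 70642036, plus strand). Chromosome 6 holds Gp9 (87778072 to 87779768, plus strand) and Vwf (125546774 to 125686679, plus strand), and chromosome 9 holds Fli1 (32422204 to 32542861, minus strand) and Nrgn (37544492 to 37552904, minus strand). Pf4 lies on chromosome 5 (90772435 to 90773383, plus strand) and Gp1bb on chromosome 16 (18620317 to 18622403, minus strand). The exons of Gp1bb share 91.1% of their bases with the same-strand gene Sept5 and 41.5% with Gm49601, so its estimated counts depend on how shared reads were divided and are uncertain.

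All 9 genes were detected in all 12 libraries and passed the filter on low counts. On the TPM scale, which corrects for transcript length and so allows genes to be compared, Pf4 was the highest of the 9 in 9 libraries and Nrgn in the other 3, shLuc replicates 1 to 3. Pf4 averaged 179 ± 30.3 TPM in shDis3, 95.4 ± 47.9 TPM in shExosc10 and 68.9 ± 72.2 TPM in shLuc libraries (SD, n = 4 each). Nrgn averaged 69.6 ± 36.9, 47.1 ± 13.6 and 63.7 ± 15.2 TPM in shDis3, shExosc10 and shLuc. Itga2b came next in mean level in each group (30.8 ± 16.0, 17.8 ± 7.14 and 21.5 ± 21.2 TPM in shDis3, shExosc10 and shLuc), followed by Fli1 (20.0 ± 9.58, 9.05 ± 4.81 and 12.4 ± 15.1 TPM) and Itgb3 (18.9 ± 7.63, 7.33 ± 4.47 and 9.98 ± 14.98 TPM). In the shDis3 and shLuc groups the means of Fli1 and Itgb3 lay within 1 SD of that of Itga2b, and in shLuc the mean of Nrgn lay within 1 SD of that of Pf4. Gp1ba, Gp1bb, Gp9 and Vwf were the lowest 4 in every group, with group means between 1.99 and 5.9 TPM and ranges that overlapped in each group.

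Itgb3 was high in all 4 shDis3 libraries and in 1 library of each other group, and Itga2b in 3 shDis3 libraries and the same 2 others. Itgb3 stood at 129.6, 84.6, 131 and 105 CPM in shDis3, at 102, 46.2, 35.6 and 26.8 CPM in shExosc10, and at 17.6, 19.0, 25.3 and 154 CPM in shLuc libraries. The highest of all 12 values was thus shLuc replicate 4, which lay 7.46 times above the mean of the other 3 control libraries, and the shDis3 and shLuc ranges overlapped through that library. Itga2b stood at 80.8, 50.4, 107 and 92.6 CPM in shDis3, at 87.3, 39.1, 38.8 and 44.0 CPM in shExosc10, and at 34.2, 22.3, 41.9 and 113 CPM in shLuc. Its shExosc10 replicate 1 and shLuc replicate 4 lay far above the rest of their groups, and shDis3 replicate 2 lay near shExosc10 replicate 4 and shLuc replicate 3.

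**Figure D1:**
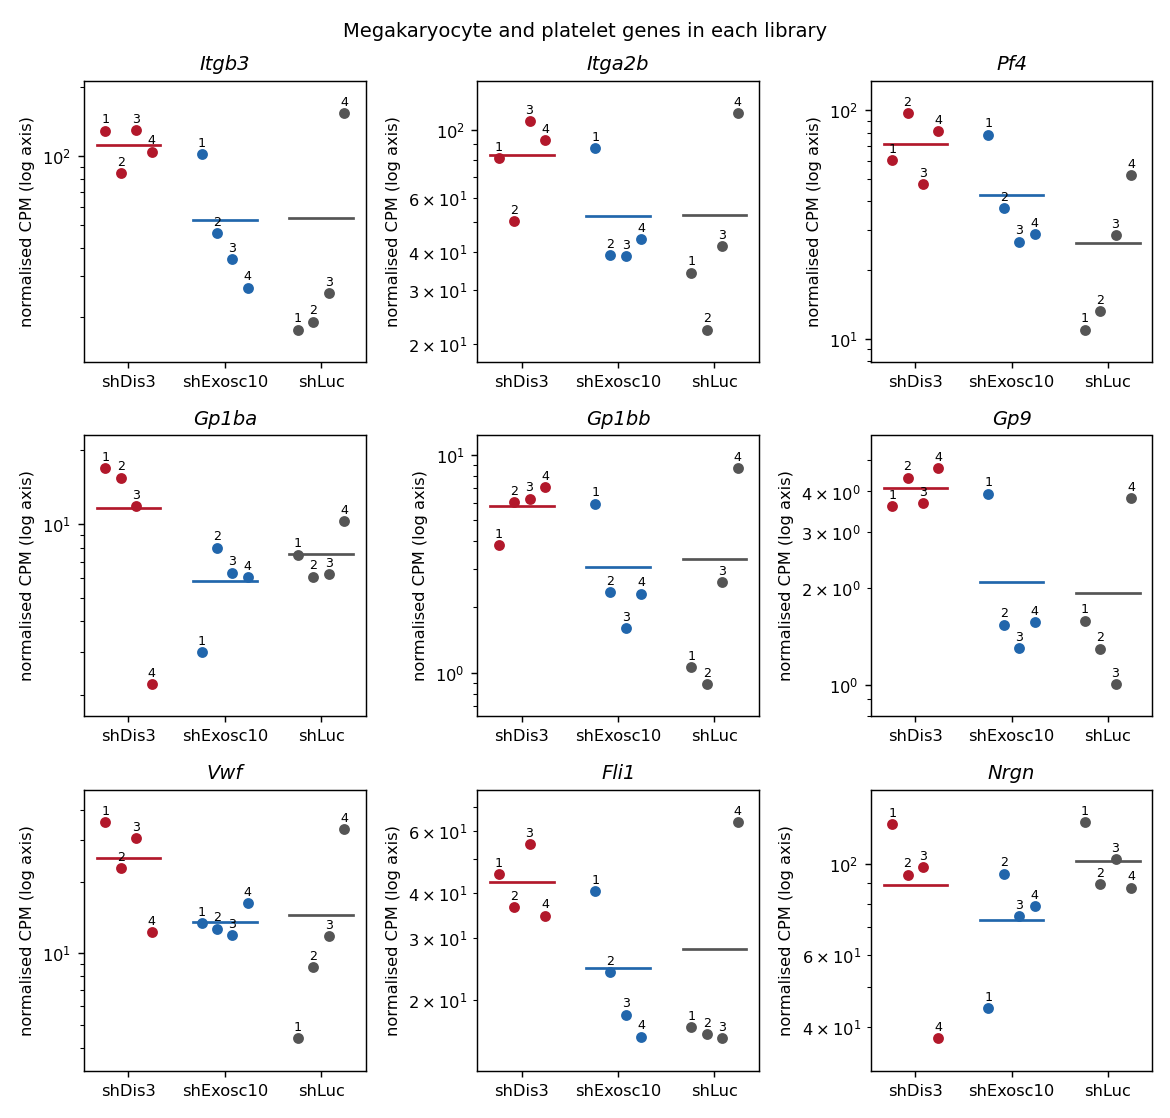
Normalised CPM (log axis, a scale of its own per gene) of the 9 genes in each library; points are libraries with their replicate number, bars are means of the 4 libraries of shDis3, shExosc10 and shLuc. In Itgb3, Itga2b, Gp1bb, Gp9 and Fli1, shExosc10 replicate 1 and shLuc replicate 4 stand with the shDis3 libraries, and in Gp1ba and Nrgn, shDis3 replicate 4 and shExosc10 replicate 1 are the lowest points.

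The integrin chains did not keep a fixed ratio. Itgb3 TPM divided by Itga2b TPM was 0.757, 0.749, 0.517 and 0.543 in shDis3, 0.493, 0.524, 0.349 and 0.243 in shExosc10, and 0.181, 0.301, 0.200 and 0.611 in shLuc libraries. The median ratio was 0.646 in shDis3, 0.421 in shExosc10 and 0.251 in shLuc. Only shLuc replicate 4, of the 4 control libraries, reached the range of the shDis3 libraries, and no test was made of this ratio.

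Pf4, the granule chemokine, stood at 60.4, 97.0, 47.4 and 81.1 CPM in shDis3, at 78.4, 37.3, 26.7 and 28.7 CPM in shExosc10, and at 10.98, 13.3, 28.4 and 52.1 CPM in shLuc libraries. It was the member with the largest fitted difference between shDis3 and shLuc. In shLuc replicate 4 it lay 2.97 times above the mean of the other control libraries, inside the shDis3 range and not above it.

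The genes of the GPIb-IX receptor split in an unequal way between libraries. Gp9 stood at 3.61, 4.42, 3.67 and 4.74 CPM in shDis3, at 3.94, 1.54, 1.301 and 1.57 CPM in shExosc10, and at 1.58, 1.29, 1.004 and 3.82 CPM in shLuc libraries. Gp1bb, whose counts are uncertain, stood at 3.83, 6.04, 6.27 and 7.11 CPM in shDis3, at 5.95, 2.35, 1.60 and 2.30 CPM in shExosc10, and at 1.06, 0.886, 2.60 and 8.68 CPM in shLuc libraries. Both were high in the 4 shDis3 libraries and in the same single library of each other group as Itgb3. Gp1ba, the subunit that binds von Willebrand factor, stood at 17.0, 15.5, 11.9 and 2.22 CPM in shDis3, at 2.99, 8.01, 6.34 and 6.07 CPM in shExosc10, and at 7.496, 6.10, 6.25 and 10.3 CPM in shLuc. It was highest in shDis3 replicates 1 to 3 and lowest of all in shDis3 replicate 4, with shExosc10 replicate 1 the next lowest.

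As a ratio of TPM, Gp1ba over Gp9 was 1.32, 0.984, 0.873 and 0.126 in shDis3, 0.205, 1.46, 1.39 and 1.08 in shExosc10, and 1.24, 1.29, 1.69 and 0.746 in shLuc libraries. The low ratios of shDis3 replicate 4 and shExosc10 replicate 1 rested on 60 and 79 Gp1ba counts and 128 and 104 Gp9 counts. Gp1bb over Gp9 held closer together, at 0.747 to 1.295 in shDis3 and 0.825 to 1.15 in shExosc10, against 0.328 to 1.98 in shLuc.

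**Figure D2:**
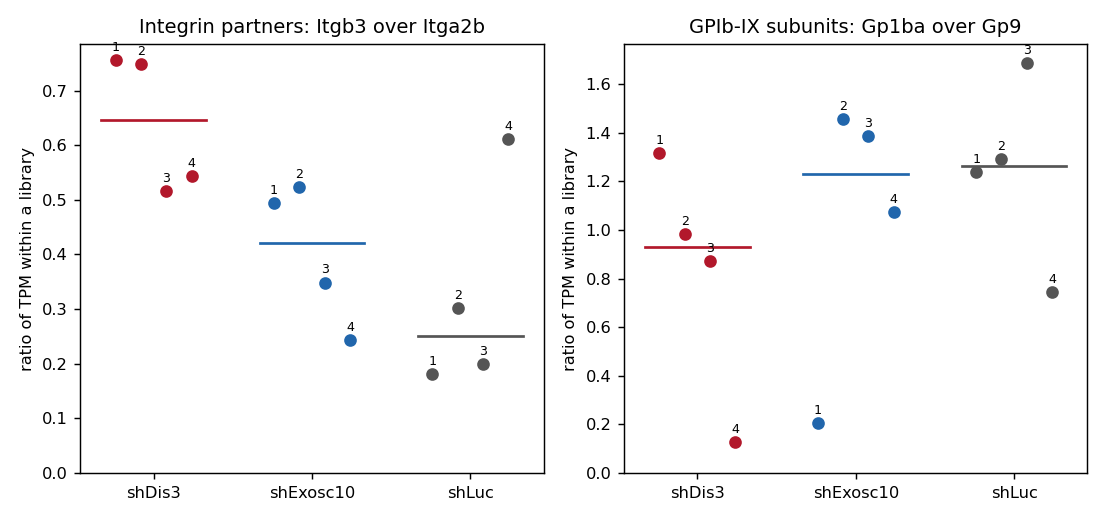
Ratios of TPM within each library for Itgb3 over Itga2b and for Gp1ba over Gp9; points are libraries with their replicate number, bars are medians of the 4 libraries of shDis3, shExosc10 and shLuc. The integrin ratio of shLuc replicate 4 (0.611) lies among the shDis3 values, and the Gp1ba ratio is lowest in shDis3 replicate 4 (0.126) and shExosc10 replicate 1 (0.205).

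Vwf stood at 35.5, 22.8, 30.4 and 12.3 CPM in shDis3, at 13.4, 12.7, 11.9 and 16.2 CPM in shExosc10, and at 4.38, 8.76, 11.8 and 33.2 CPM in shLuc libraries. In contrast to the integrins, its value in shExosc10 replicate 1 was close to those of its group, and shDis3 replicate 4 lay within the shExosc10 range. Fli1 stood at 45.3, 36.6, 55.2 and 34.6 CPM in shDis3, at 40.7, 24.03, 18.2 and 15.8 CPM in shExosc10, and at 16.8, 16.0, 15.6 and 63.4 CPM in shLuc. Its shLuc replicates 1 to 3 averaged 16.1 ± 0.599 CPM (SD, n = 3), and replicate 4 lay 3.93 times above them.

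Nrgn went its own way. It stood at 125, 94.4, 98.4 and 37.4 CPM in shDis3, at 44.3, 94.9, 74.6 and 78.8 CPM in shExosc10, and at 127, 89.5, 103 and 87.7 CPM in shLuc libraries. The 3 ranges overlapped, and the lowest 2 of all were shDis3 replicate 4 and shExosc10 replicate 1, as for Gp1ba. The place of shLuc replicate 4 depended on the scale. It was its group's lowest value by CPM, but the highest by TPM (84.1, against 51.8 to 66.3 TPM in the other shLuc libraries). Nrgn over Pf4 in TPM was between 0.130 and 0.594 in shDis3 and between 0.164 and 0.803 in shExosc10, against 0.480 to 3.35 in shLuc.

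**Figure D3:**
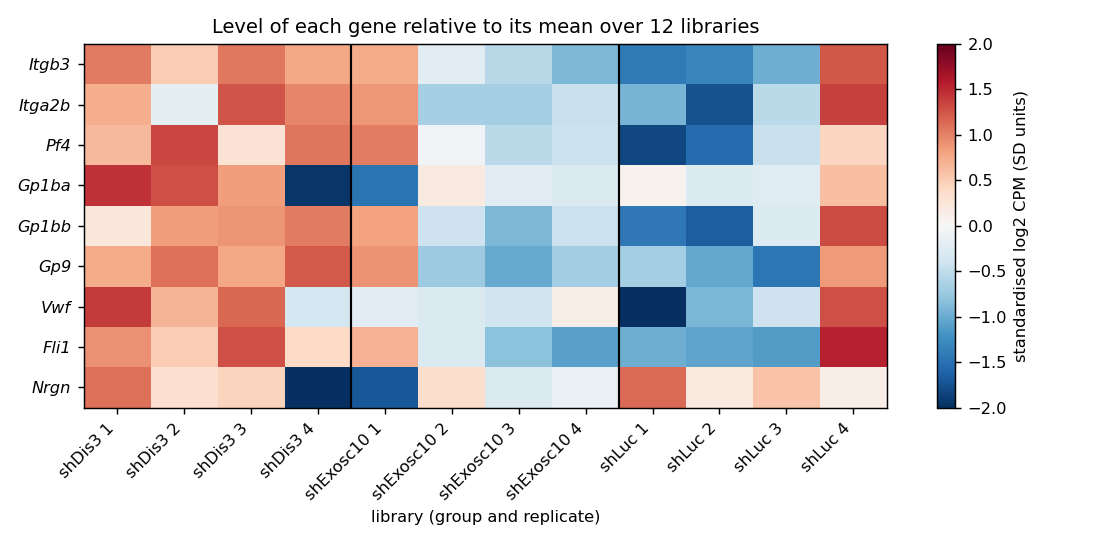
Log2 CPM of each gene, centred on its mean over the 12 libraries and divided by its SD (colour scale in SD units), with black lines between shDis3, shExosc10 and shLuc. Averaged over the 9 genes, shLuc replicate 4 has the highest value (0.98 SD) and shLuc replicate 2 the lowest (-1.03 SD); Gp1ba and Nrgn are the rows in which shDis3 replicate 4 and shExosc10 replicate 1 are lowest.

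The mean of the 9 standardised levels put these libraries in order. It was 0.92, 0.71, 0.89 and 0.12 SD in shDis3, 0.19, -0.24, -0.60 and -0.48 SD in shExosc10, and -0.90, -1.03, -0.54 and 0.98 SD in shLuc libraries. shDis3 replicates 1 to 3 were among the highest 6 libraries for all 9 genes, shLuc replicate 4 for 8, shExosc10 replicate 1 for 7 and shDis3 replicate 4 for 6. Over the 12 libraries, Itgb3 (Pearson r = 0.948) and Fli1 (r = 0.947) followed this mean most closely, and Gp1ba (r = 0.449) and Nrgn (r = -0.02) least. Each gene is part of the mean it was set against, and the libraries share the groups, so these values are descriptions only.

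For shDis3 against shLuc, no member passed the threshold with all 12 libraries, although 8 of the 9 fitted differences were positive, as were 52.6% over all genes tested. The quasi-likelihood F-test of edgeR, with Benjamini-Hochberg adjustment over 17650 genes and a threshold of 0.05, called 0 of the 9 members and 0 genes in all (0.0% of genes tested); 719 genes had an unadjusted p under 0.05, Pf4 and Gp9 among them. DESeq2 called 33 genes (0.187%) and no member. Without the filter on low counts edgeR called 123 genes (0.297%), Pf4 among them (1.42, SE 0.26, adjusted p = 0.000165). The log2 fold change was 1.44 (SE 0.46) for Pf4, 1.09 (SE 0.46) for Gp9, 1.06 (SE 0.62) for Itgb3, 0.81 (SE 0.62) for Gp1bb and 0.79 (SE 0.47) for Vwf. It was 0.64 (SE 0.43) for Itga2b, 0.62 (SE 0.46) for Gp1ba, 0.62 (SE 0.43) for Fli1 and -0.19 (SE 0.31) for Nrgn. The edgeR adjusted p was 1.0 for each of the 9. The median of the 9 was 0.79, against 0.02 over all genes tested. The CPM ranges of the groups overlapped for all 9 members, where 0.907% of genes lay wholly higher in shDis3 and 0.793% wholly lower.

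The members called changed when 1 control library was left out. Without shLuc replicate 4, edgeR called 4 of the 9 members higher in shDis3, where 0.531% of 19777 genes were called higher and 0.738% in either direction. These were Itgb3 (log2 fold change 2.45, SE 0.40, adjusted p = 0.0201), Pf4 (2.02, SE 0.43, adjusted p = 0.0438), Fli1 (1.41, SE 0.31, adjusted p = 0.0483) and Vwf (1.60, SE 0.35, adjusted p = 0.0494). Itga2b, Gp1bb and Gp9 had values of 1.33 (SE 0.35), 1.94 (SE 0.51) and 1.66 (SE 0.46) with edgeR adjusted p between 0.0879 and 0.107. Gp1ba was at 0.80 (SE 0.49) and Nrgn at -0.27 (SE 0.33). In this subset every shDis3 library lay above every control library for 7 of the 9 members, all but Gp1ba and Nrgn, where 6.99% of genes did so. The ranges of these 7 had overlapped only through shLuc replicate 4, which was left out with earlier results known. The count therefore follows from the choice of library and is not separate support for a difference.

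Leaving out all 3 libraries that stood apart, which kept 3 libraries of each group, gave 8 of 9 members called higher in shDis3 than in shLuc, where edgeR called 2.85% of 19126 genes higher and 4.04% in either direction. The log2 fold changes of the 8 ran from 1.16 (SE 0.22) for Gp1ba to 2.47 (SE 0.26) for Itgb3, with edgeR adjusted p between 0.000233 and 0.0406. Nrgn was the exception, with an edgeR adjusted p of 1.0. Over the 8185 genes averaging 10 CPM or more, all shDis3 libraries kept belong to 1 cluster and all others kept to another. Cluster and hairpin therefore cannot be told apart in this fit. Of the libraries left out, shLuc replicate 4 had the highest mean of the members' standardised levels (0.98 SD). shDis3 replicate 4 had the lowest of its group (0.12 SD) and the lowest Gp1ba of all (2.22 CPM). Leaving out both widens the difference by itself, so the calls are not separate support for it. Which libraries are left out mattered to the count. Keeping only the libraries in the most common cluster of their group over the 17589 genes, an alternative chosen after the data were seen, left out shDis3 replicate 2, shExosc10 replicate 1 and shLuc replicates 1 and 4. edgeR then called 7 of the 9 higher in shDis3 than in shLuc, all but Gp1ba and Nrgn, where it called 2.94% of 20179 genes higher and 11.4% in either direction. The same fit called 0 members for shExosc10 against shLuc (0.00991% of genes) and 6 higher in shDis3 than in shExosc10 (4.41% of genes higher, 14.8% in either direction). All shDis3 libraries kept there belong to 1 cluster and all others kept to another, so cluster and hairpin cannot be told apart in it. It also leaves out shLuc replicate 4 and shExosc10 replicate 1, the highest of their groups by the same mean. shLuc replicate 1, also left out, was low by that mean (-0.90 SD). In the opposite direction, with the 3 clusters of libraries from the genes of at least 10 CPM entered as a factor, none of the 9 was called (2 genes were, 0.0113%) and the values ran from -0.31 (SE 0.22) for Fli1 to 0.54 (SE 0.36) for Pf4. In that fit shDis3 and shLuc are compared directly inside a cluster only through shLuc replicate 4, since it is the single control library that clusters with shDis3 libraries.

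**Figure D4:**
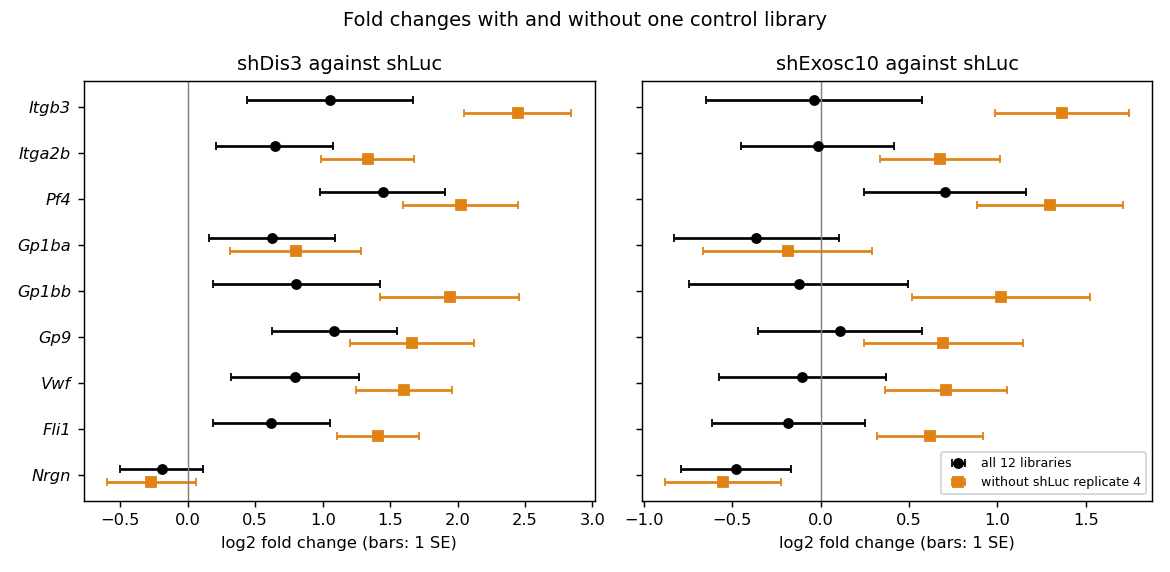
Log2 fold change of each gene for shDis3 against shLuc and for shExosc10 against shLuc, with all 12 libraries (black circles) and without shLuc replicate 4 (orange squares); bars are 1 SE of the edgeR fit. Without that library Itgb3 moves to 2.45 in shDis3 against shLuc and to 1.36 in shExosc10 against shLuc, while Nrgn stays below 0 in both.

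For shExosc10 against shLuc, most fitted differences of the members were smaller than their SE, which does not show that the levels were alike. edgeR called 0 of the 9, where it called 1 gene of 17650 (0.00567%), and 371 genes had an unadjusted p under 0.05 with no member among them; DESeq2 called 8 genes (0.0453%) and no member, and edgeR without the filter on low counts called 10 (0.0242%) and no member. The log2 fold change was 0.71 (SE 0.46) for Pf4 and 0.11 (SE 0.46) for Gp9. The other 7 were negative, where 52.2% of all genes were positive, and lay between -0.02 (SE 0.43) for Itga2b and -0.48 (SE 0.31) for Nrgn, and the edgeR adjusted p was 1.0 for each of the 9. The median of the 9 was -0.10, against 0.02 over all genes. The groups overlapped for all 9 members, where 1.02% of genes lay wholly higher in shExosc10 and 1.46% wholly lower.

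This comparison depended on 2 libraries that pulled in opposite directions. Without shLuc replicate 4, 7 of the 9 differences were positive, up to 1.36 (SE 0.38) for Itgb3 and 1.296 (SE 0.41) for Pf4, and edgeR called none of them (0.0101% of genes, adjusted p = 1.0 for each member). Itgb3 and Vwf were then higher in every shExosc10 library than in every remaining control library, where 2.83% of genes were. Without shExosc10 replicate 1, 8 of the 9 were negative, down to -0.67 (SE 0.63) for Gp1bb, Pf4 was at 0.24 (SE 0.43), and edgeR called none (0.00505% of genes). With all 3 libraries left out, 8 of 9 were positive with a median of 0.32, and edgeR called none (0.0157% of genes).

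For shDis3 against shExosc10, all 9 fitted differences were positive, as were 51.2% over all genes, and none was called, where edgeR called 2 genes (0.0113%) and 1055 had an unadjusted p under 0.05. DESeq2 called 79 genes (0.448%) and no member, and it gave no adjusted p for Itgb3 or Gp9. Without the filter on low counts edgeR called 179 genes (0.433%), Itgb3 among them (1.08, SE 0.28, adjusted p = 0.0323). The log2 fold change was 1.09 (SE 0.62) for Itgb3, 0.99 (SE 0.47) for Gp1ba, 0.98 (SE 0.46) for Gp9, 0.93 (SE 0.62) for Gp1bb and 0.90 (SE 0.47) for Vwf. It was 0.80 (SE 0.43) for Fli1, 0.74 (SE 0.46) for Pf4, 0.66 (SE 0.43) for Itga2b and 0.28 (SE 0.31) for Nrgn. The edgeR adjusted p lay between 0.824 and 1.0, and the median of 0.90 stood against 0.01 over all genes. No member had groups that did not overlap, where 1.91% of genes lay wholly higher in shDis3 and 1.8% wholly lower.

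Without shExosc10 replicate 1, every shDis3 library lay above every shExosc10 library for Itgb3, Itga2b, Pf4, Gp1bb, Gp9 and Fli1, where 7.25% of genes did so, and edgeR called none of the 9 (0.0101% of genes). With the 3 libraries left out, edgeR called Itgb3 (1.65, SE 0.25, adjusted p = 0.00292), Fli1 (1.23, SE 0.21, adjusted p = 0.00563) and Gp1ba (1.10, SE 0.22, adjusted p = 0.0135) higher in shDis3, where it called 2.02% of 19126 genes higher and 3.23% in either direction. With the 3 libraries left out, cluster and hairpin cannot be told apart in this comparison either. By the mean of the members' standardised levels, shExosc10 replicate 1 was the highest of its group (0.19 SD). shDis3 replicate 4 was the lowest of its group (0.12 SD). Leaving these libraries out therefore widens the difference by itself. The 3 comparisons share libraries, so their values for the members are not independent of one another.

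Other genes of megakaryocytes and platelets were read from 4 lists, with a list of erythroid markers beside them. Of 15 receptor and surface genes tested out of 16, 14 had positive values for shDis3 against shLuc (median 0.87). So did all 10 granule and secreted proteins (median 0.85) and 12 of 14 cytoskeletal and signalling genes (median 0.54). The 13 transcription factors were divided, with 8 positive and a median of 0.05, and 4 of 12 erythroid markers were positive (median -0.25). edgeR called no gene of the 5 lists with all 12 libraries, and the median over all genes was 0.02.

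**Figure D5:**
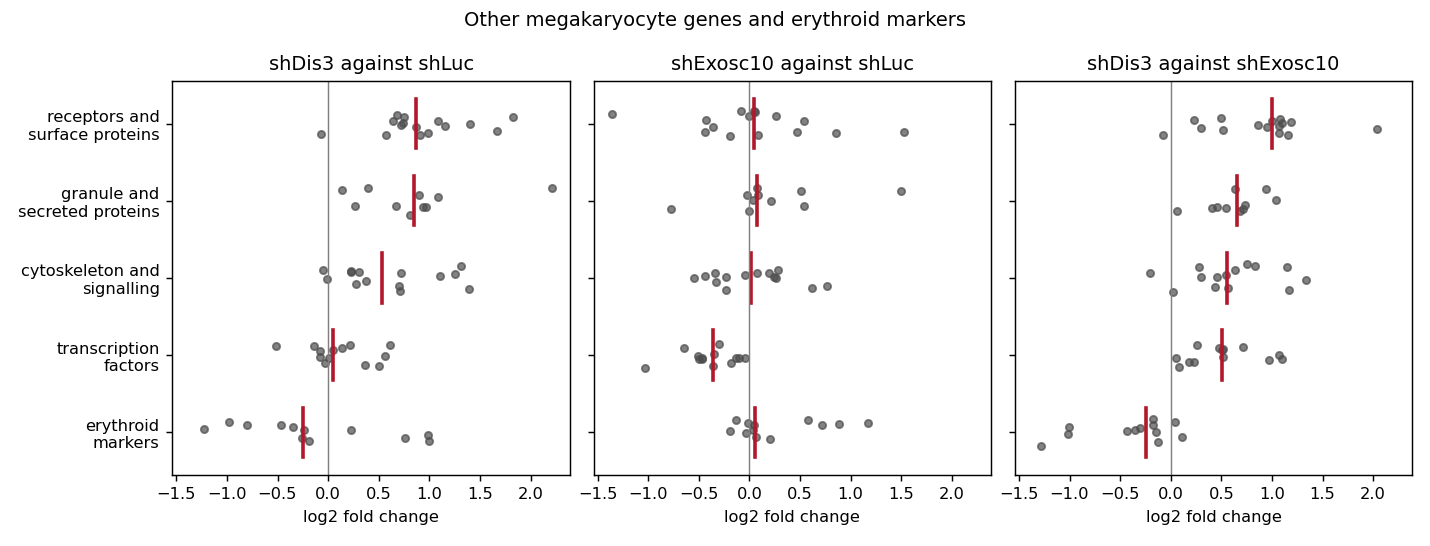
Log2 fold change of the other megakaryocyte genes and of the erythroid markers, by list, in the 3 comparisons with all 12 libraries; grey points are genes, red bars are list medians and the vertical spread of points within a list has no meaning. Medians of the 3 surface, granule and signalling lists lie at 0.54 to 0.87 for shDis3 against shLuc and at 0.02 to 0.08 for shExosc10 against shLuc.

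Within the granule list, Ppbp, a chemokine stored beside Pf4, had the smallest unadjusted p for shDis3 against shLuc. It stood at 6.09, 6.39, 3.41 and 5.96 CPM in shDis3, at 4.96, 3.8, 2.80 and 1.76 CPM in shExosc10, and at 0.739, 1.09, 1.14 and 1.71 CPM in shLuc libraries. Both knockdown groups lay above all 4 control libraries, shExosc10 by a narrow margin (1.76 CPM in its lowest library, against 1.71 CPM in shLuc replicate 4). Its log2 fold change was 2.21 (SE 0.39, edgeR adjusted p = 0.300) for shDis3 against shLuc and 1.5 (SE 0.38, edgeR adjusted p = 1.0) for shExosc10 against shLuc, and DESeq2 called it in the first of these. F13a1, the clotting factor chain stored in platelets, ranged over 139 to 239 CPM in shDis3, 99.4 to 239 CPM in shExosc10 and 54.0 to 195 CPM in shLuc libraries. Serpine2, a protease inhibitor, ranged over 9.33 to 21.3, 6.02 to 9.66 and 5.91 to 10.8 CPM in shDis3, shExosc10 and shLuc.

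Among the receptors, P2ry1, a platelet receptor for ADP, ranged over 11.2 to 15.1 CPM in shDis3, 4.65 to 8.94 CPM in shExosc10 and 4.01 to 11.5 CPM in shLuc libraries, with a log2 fold change of 0.91 (SE 0.31) for shDis3 against shLuc. Gp5, which joins the GPIb-IX complex on platelets, ranged over 10.1 to 15.1, 6.51 to 10.6 and 7.07 to 10.1 CPM in shDis3, shExosc10 and shLuc, with a value of 0.58 (SE 0.22). Tbxas1, the thromboxane synthase, ranged over 4.36 to 6.69, 2.91 to 4.75 and 1.06 to 4.32 CPM in shDis3, shExosc10 and shLuc (1.32, SE 0.40, for shDis3 against shLuc).

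Without shLuc replicate 4, edgeR called 10 genes of these 3 lists (15, 10 and 14 tested) higher in shDis3 than in shLuc, where it called 0.531% of all genes higher: F2rl2 of the receptors, F13a1, F5, Ppbp, Slc35d3 and Thbs1 of the granule list, and Alox12, Ptgs1, Rasgrp2 and Tbxas1 of the signalling list. Of the erythroid list, it called the transferrin receptor gene Tfrc lower, at 362 to 560 CPM in shDis3, against 906 to 1413 CPM in the remaining shLuc libraries and 351 CPM in shLuc replicate 4. In all, 41 of 19777 genes were called lower. No transcription factor was called. The library left out had the highest summed CPM within shLuc for the receptor, granule and signalling lists (127, 549 and 1968 CPM). Leaving it out therefore raises these differences by itself. With the 3 libraries that stood apart left out, edgeR called 6 of 15 receptor genes, 7 of 10 granule genes, 7 of 14 signalling genes and 4 of 13 transcription factors higher in shDis3 than in shLuc, where it called 2.85% of all genes higher. It called 3 of 12 erythroid markers lower, Rhd and Tfrc among them, where it called 227 of 19126 genes lower. In that fit cluster and hairpin cannot be told apart.

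For shExosc10 against shLuc the same lists had medians of 0.04 (8 of 15 positive), 0.08 (7 of 10) and 0.02 (7 of 14), and no gene of them was called. All 13 transcription factors were negative, with a median of -0.36 against 0.02 over all genes. Gata2, a factor of early progenitors, had the largest of these at -1.03 (SE 0.36), with 54.3 to 69.9 CPM in shExosc10 and 60.7 to 222 CPM in shLuc libraries, and Lyl1 had -0.47 (SE 0.17). Without shLuc replicate 4 the factors were divided, 6 of 13 positive with a median of -0.06.

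For shDis3 against shExosc10, 14 of 15 receptor genes (median 0.998), all 10 granule genes (median 0.66), 13 of 14 signalling genes (median 0.56) and all 13 transcription factors (median 0.50) were positive, none called, against a median of 0.01 over all genes. Of the erythroid markers, 10 of 12 were negative (median -0.24).

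Some markers of other cell types moved with the same libraries and some did not. The summed CPM of the 10 granulocyte markers was 2089 to 4818 in shDis3, 1298 to 2046 in shExosc10 and 1051 to 4234 in shLuc libraries, and Mpo, the myeloperoxidase gene, stood at 3746, 2496, 2820 and 1558 CPM in shDis3, at 1497, 1109, 819 and 869 CPM in shExosc10, and at 583, 773, 1010 and 3630 CPM in shLuc. Mpo made up most of that sum, and late granulocyte genes went the other way in shLuc replicate 4: S100a8 was at 47.4 CPM there, against 109 to 152 CPM in the other shLuc libraries, and S100a9 at 74.3 CPM, against 149 to 192 CPM. Camp and Ltf were also lowest there within shLuc. The 10 macrophage and monocyte markers summed to 136 to 185 CPM in shDis3, 91.4 to 159 CPM in shExosc10 and 108 to 176 CPM in shLuc. The 9 hepatocyte markers summed to 5.6 to 16.5 CPM in shDis3, 9.09 to 21.97 CPM in shExosc10 and 4.19 to 28.6 CPM in shLuc, lowest in shLuc replicate 4. The 10 stem and progenitor markers summed to 369 to 671 CPM in shDis3, 285 to 666 CPM in shExosc10 and 269 to 715 CPM in shLuc. Myb made up most of that sum in every library, at 316 to 584 CPM in shDis3, 269 to 578 CPM in shExosc10 and 248 to 614 CPM in shLuc. For shDis3 against shLuc, 7 of 9 granulocyte markers tested (median 0.74) and 9 of 9 stem and progenitor markers tested (median 0.52) were positive, and none was called with all 12 libraries. Without shLuc replicate 4, edgeR called the granulocyte genes Ctsg, Mpo and Prtn3 higher in shDis3, where it called 0.531% of 19777 genes higher. The 2 medians with all libraries lie within the range of the 4 megakaryocyte lists, 0.05 to 0.87.

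The 8 mast cell and basophil markers summed to 23.5 to 93.9 CPM in shDis3, 9.27 to 118 CPM in shExosc10 and 10.9 to 122 CPM in shLuc libraries. Among them Cpa3 was highest in shExosc10 replicate 1 (73.1 CPM), shLuc replicate 4 (67.5 CPM) and shDis3 replicate 4 (56.0 CPM), and Fcer1a was at 0 in every library. Pecam1, which endothelial cells and megakaryocytes both express, was at 13.9 to 29.2 CPM in shDis3, 5.83 to 28.6 CPM in shExosc10 and 2.11 to 32.01 CPM in shLuc libraries. The 11 endothelial markers, Pecam1 included, summed to 55.3 to 73.8 CPM in shDis3, 37.3 to 44.3 CPM in shExosc10 and 39.8 to 66.8 CPM in shLuc. Among them Eng alone was at 14.3 to 48.9 CPM in shDis3, 7.73 to 28.9 CPM in shExosc10 and 22.3 to 39.2 CPM in shLuc. Cdh5 was at most 0.418 CPM, and Cldn5 and Stab2 had at most 10 counts in any library. The part of these other cell types in the members' levels was not tested.

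Erythroid markers ran the other way in part. Their summed CPM was 1761 to 3183 in shDis3, 1764 to 4315 in shExosc10 and 1653 to 3880 in shLuc libraries, and the lowest of the 12 was shLuc replicate 4. Klf1 was present in every library, at 85.0 to 147 CPM in shDis3, 108 to 170 CPM in shExosc10 and 127 to 198 CPM in shLuc. The globin genes Hbb-bt and Hba-a1, and Alas2, had higher means in shDis3 than in shLuc. In shDis3, shExosc10 and shLuc, Hbb-bt averaged 177, 200 and 89.0 CPM, Hba-a1 358, 458 and 307 CPM, and Alas2 23.4, 22.6 and 13.7 CPM. The group ranges overlapped for each of these genes, and most erythroid markers had negative values for shDis3 against shLuc.

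Technical measures differed between libraries, and the measures did not group them alike. Genes of olfactory receptors, which these cells are not known to use, summed to 7.01 to 12.7 CPM in shDis3 replicates 3 and 4, shExosc10 replicate 1 and shLuc replicate 4, and to 30.01 to 601.5 CPM in the other 8. The mitochondrial share of counts was 10.3% to 20.9% in shDis3, 16.2% to 20.8% in shExosc10 and 9.79% to 20.9% in shLuc libraries, lowest in shLuc replicate 4. In contrast, shDis3 replicate 4 (20.9%) and shExosc10 replicate 1 (20.8%) had the highest share of their groups. The part of these measures in the members' levels was not tested.

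Of the genes outside the set, those whose levels over the 12 libraries were most like the members' mean were Itgb5 (Pearson r = 0.982), Sp110 (r = 0.981), Mpo (r = 0.980), Cebpa (r = 0.975) and Thbs1 (r = 0.975). Thbs1, which encodes the platelet granule protein thrombospondin, stood at 135, 92.4, 142 and 83.8 CPM in shDis3, at 85.6, 47.6, 53.0 and 49.8 CPM in shExosc10, and at 33.998, 30.8, 41.3 and 130.1 CPM in shLuc libraries. Cebpa, a transcription factor of granulocyte precursors, stood at 50.6, 30.6, 53.0 and 18.4 CPM in shDis3, at 20.4, 13.9, 9.14 and 10.96 CPM in shExosc10, and at 9.77, 8.35, 12.7 and 61.1 CPM in shLuc. The genes were ranked on this likeness, which carries no test, and 2 of the 5 are granulocyte genes.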

How the data were processed

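RNA-seq was made from 12 libraries, 4 each of shDis3, shExosc10 and shLuc, grouped and numbered by their titles. Per the labels' protocols, Trizol RNA went into a stranded total RNA kit made for very small inputs. STAR 2.5.3a, RSEM 1.3.0 and build GRCm38 (mm10) are named in the submitters' processing notes. How strand was set, which annotation was used and whether genes were filtered is not given in the sources used here. Each deposited table holds RSEM expected counts, per the file headers: estimates in which reads that fit several genes are divided, so that 4.55% were not whole (tolerance 0.001). The deposited TPM values have the same total in each library.

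Symbols and coordinates came from GENCODE M21 (54487 of 55385 identifiers matched with version). Expected counts were rounded and tested with edgeR 4.0.16 (R 4.3.3): TMM factors, default filter on low counts, quasi-likelihood F-test on all 12 libraries with group as the only term, Benjamini-Hochberg adjustment over 17650 genes, threshold 0.05. The biological coefficient of variation was 60.0%, and SE is the log2 fold change divided by the square root of F. CPM use TMM-scaled library sizes, except for the olfactory receptor sums, which use library totals. The test was also run on simulated counts, drawn independently for each library and with no clusters of libraries, so that check does not cover such clusters. Alternatives were DESeq2 1.42.0, other scalings, no filter, limma 3.58.1 on log2(TPM + 1), a replicate block, clusters of libraries as a factor, and libraries left out, among them those outside the planned cluster of their group.

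The members, lists and libraries left out were chosen with earlier results of these data known. Named genes were the members, the targeted genes, up to 4 called genes per list and comparison (otherwise up to 3 by smallest unadjusted p), and the 5 genes most like the members' mean log2 CPM. Cpa3, Pecam1, Klf1, Myb and the marker genes at or near 0 are also given per library or as a range, chosen after their values were seen. Some genes that this rule names are not reported here.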

Additional observations from a re-analysis of the deposited data

Results flagged for a closer look

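In 27 groups of 4 libraries (9 genes in 3 groups), a library was singled out where its gap to the nearest other library exceeded Dixon's 95% critical share of the group's range for 4 values; chance alone marks about 5% of groups, and 4 were marked. Itgb3 in shLuc replicate 4 was at 153.955 CPM, with a gap of 0.944 of the range, and Fli1 in the same library was at 63.3853 CPM, with a gap of 0.975. Itga2b in shExosc10 replicate 1 was at 87.2577 CPM (gap 0.892), and Gp9 in that library was at 3.94043 CPM (gap 0.900). Gp1bb in shExosc10 replicate 1 fell just short, at a gap of 0.8285. All 4 marked values lay above the rest of their group. The 27 groups share libraries, so the flags are not independent of one another.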

How the results depend on the processing

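With all 12 libraries and the filter on low counts, edgeR called no member in any comparison. It called 0 genes between shDis3 and shLuc, 1 between shExosc10 and shLuc and 2 between shDis3 and shExosc10. DESeq2 called 33, 8 and 79 genes in these comparisons, taken in that order, and no member; it gave no adjusted p for Itgb3 in any of them, nor for Gp9 in the third. Without the filter on low counts the calls were 123, 10 and 179 genes, with 1 member in the first comparison (Pf4, adjusted p = 0.000165) and 1 in the third (Itgb3, adjusted p = 0.0323). limma on log2(TPM + 1) called 0 genes between shExosc10 and shLuc (212 with an unadjusted p under 0.05) and 0 between shDis3 and shExosc10 (640). For shDis3 against shLuc, upper-quartile factors, library totals alone and the planned clusters of libraries as a factor each gave 1 gene. The clusters from genes of at least 10 CPM, an alternative chosen after the data were seen, gave 2 genes for shDis3 against shLuc and 2 for shExosc10 against shLuc. With only the compared groups, 1 gene was called for shDis3 against shExosc10. Without the 3 libraries that stood apart, 772, 3 and 617 genes were called, with 8, 0 and 3 members. Without the 4 libraries outside the planned cluster of their group, 2296, 2 and 2996 genes were called, with 7, 0 and 6 members; the median over all genes was then -0.12 for shDis3 against shLuc and -0.15 for shDis3 against shExosc10. Leaving out 1 library at a time gave 0 to 146, 0 to 2 and 1 to 2 genes, and 0 to 4, 0 to 0 and 0 to 0 members; the highest counts came from leaving out shLuc replicate 4. The number of members with the highest mean in shDis3 was 8 by CPM and 9 by TPM. The causes of these changes were not tested, beyond the fewer or more genes and libraries that each setting uses.

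The titles give the groups the same replicate numbers. Of 12 same-numbered pairs, 7 had deviations from the group means that correlated above 0.1, with r from -0.47 to 0.77, and 4 libraries correlated best with their own number, so the numbers were not taken as pairs. All 3 pairs of replicate 2 were positive (0.37 to 0.77), and whether a number marks a shared factor was not settled. With the replicate number as a block, 0, 1 and 1 genes were called and no member. In that paired fit shExosc10 against shLuc turned positive for Itgb3 (0.39), Itga2b (0.17), Gp1bb (0.26) and Vwf (0.077).

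Fitted log2 fold changes also changed sign as follows, none of them called. For shExosc10 against shLuc, limma gave 0.33 for Itgb3, 0.056 for Itga2b, 0.10 for Gp1bb, 0.052 for Vwf and 0.019 for Fli1, and upper-quartile factors gave 0.023 for Itgb3 and 0.039 for Itga2b. Without the 3 libraries it was 0.82 for Itgb3, 0.32 for Itga2b, 0.058 for Gp1ba, 0.46 for Gp1bb, 0.71 for Vwf and 0.28 for Fli1. Without the 4 libraries it was 0.71 for Itgb3, 0.34 for Itga2b, 0.14 for Gp1ba, 0.26 for Gp1bb, 0.41 for Vwf and 0.29 for Fli1. The planned clusters gave 0.14 for Itgb3 and 0.089 for Itga2b, and 0.087 for Nrgn in shDis3 against shLuc. The clusters from genes of at least 10 CPM gave 0.59 for Itgb3, 0.15 for Itga2b, 0.19 for Gp1ba, 0.19 for Gp1bb, 0.58 for Vwf and 0.17 for Fli1. In the same fit shDis3 against shLuc was -0.022 for Itgb3, -0.22 for Itga2b, -0.26 for Gp1bb and -0.31 for Fli1. There shDis3 against shExosc10 was -0.61 for Itgb3, -0.37 for Itga2b, -0.19 for Pf4, -0.45 for Gp1bb, -0.51 for Vwf and -0.48 for Fli1. Leaving out 1 library at a time, shExosc10 against shLuc ran from -0.57 to 1.36 for Itgb3, -0.37 to 0.68 for Itga2b, -0.67 to 1.02 for Gp1bb, -0.38 to 0.69 for Gp9, -0.39 to 0.71 for Vwf and -0.52 to 0.62 for Fli1, and shDis3 against shLuc from -0.41 to 0.060 for Nrgn. Over the same settings the other 8 members stayed positive for shDis3 against shLuc, and all 9 for shDis3 against shExosc10. Counting error is largest for Gp1bb and Gp9, at 20 to 259 counts per library, except in shDis3 replicate 4 and shExosc10 replicate 1, where Gp1ba has the fewest counts of these 3 genes (60 and 79).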
